A study of Rattus norvegicus with 6 samples.

Results

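Srrm4 and 8 other neuronal regulators of splicing were followed through the nucleus accumbens of rats with a history of heroin intake. The members are Srrm4, Srrm3, Nova1, Nova2, Rbfox1, Rbfox2, Rbfox3, Ptbp2 and Celf4, 9 of the 25629 genes in the count matrices. They were found by gene symbol, and each symbol belonged to 1 gene identifier. Srrm4 heads the list because it was chosen by measured values, its higher level over all nuclei after naloxone, so that difference is described below without a test and nothing rests on it. The other 8 were added as its functional relatives.

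The nucleus accumbens lies in the ventral striatum, and its nuclei came from bilateral punches of Sprague-Dawley rats aged 90 to 120 days. Heroin self-administration ran for 7 days at 1 response per infusion and 4 days at 3 responses, followed by a progressive ratio test on day 12 and 3 responses again on days 13 and 14. Rats then received saline or naloxone, which blocks opioid receptors, and tissue was taken after 1 h. The 12 rats (6 of each sex) gave 6 libraries that each pooled males and females, saline replicates 1 to 3 and naloxone replicates 4 to 6. Rats without heroin were not analysed here, so both groups share the heroin history. The question asked of the members was where each is transcribed and which class of nuclei holds the higher Srrm4 level after naloxone.

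Splicing in neurons differs from splicing in other cells because neurons make a set of RNA-binding proteins that other cells largely lack. SRRM4, also called nSR100, promotes the inclusion of neuronal microexons, very short exons that alter protein interaction surfaces, and SRRM3 is its close relative with an overlapping role. The Srrm4 gene is held down outside the nervous system by the repressor REST. NOVA proteins bind YCAY motifs, RBFOX proteins bind GCAUG motifs, PTBP2 takes over from PTBP1 as cells become neurons, and CELF4 acts on both splicing and the stability of mRNA in neurons.

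The libraries held 55739350 to 76272798 unique molecular identifiers (UMIs, tags that count captured RNA molecules) in 8094 to 15020 barcodes. After filtering and removal of called doublets, 58960 nuclei were used, 7647 to 13676 per library. Any pair of libraries shared 19 to 45 cell barcodes, at most 0.408% of the smaller library. Clustering, with the members kept out of the genes used, gave 44 clusters. Marker lists named 24 of them as 17 classes (43301 nuclei), and 11 stayed unnamed. The other 9 (5435 nuclei) had a median doublet score of at least 0.08. They were set apart as mixed clusters but stayed in the sums over all nuclei. Of the unnamed clusters, 8 carried neuronal markers and held 8261 nuclei, 14.0% of the total. These are called by their numbers, as their markers did not reach the minimum for a name or pointed to several classes. Levels are given as CPM, the UMIs of a gene per 1000000 UMIs of the nuclei summed, in 14 named classes and 9 numbered clusters with at least 20 nuclei in every library.

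Srrm4 (ENSRNOG00000001141) was higher in interneuron-like classes and some unnamed neuronal clusters than in the projection neurons. It was highest in cluster 24 at 612.6 ± 90.0 CPM and in cluster 18 at 578.0 ± 122.0 CPM (mean ± SD, n = 6 libraries). Cholinergic interneuron-like nuclei held 283.5 ± 25.3 CPM, cluster 21 held 250.6 ± 28.8 CPM and Pthlh Pvalb interneuron-like nuclei held 214.3 ± 33.0 CPM. The spiny neurons, the GABAergic projection neurons of the striatum, were lower. Drd1 spiny neuron-like nuclei held 67.5 ± 5.59 CPM, Drd2 spiny neuron-like nuclei 59.9 ± 11.1 CPM and Chst9 spiny neuron-like nuclei 50.8 ± 6.63 CPM. Eccentric spiny neuron-like nuclei and Drd3 island-like neurons were the lowest of the named neurons, at 28.3 ± 4.16 and 26.8 ± 4.48 CPM.

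**Figure D1:**
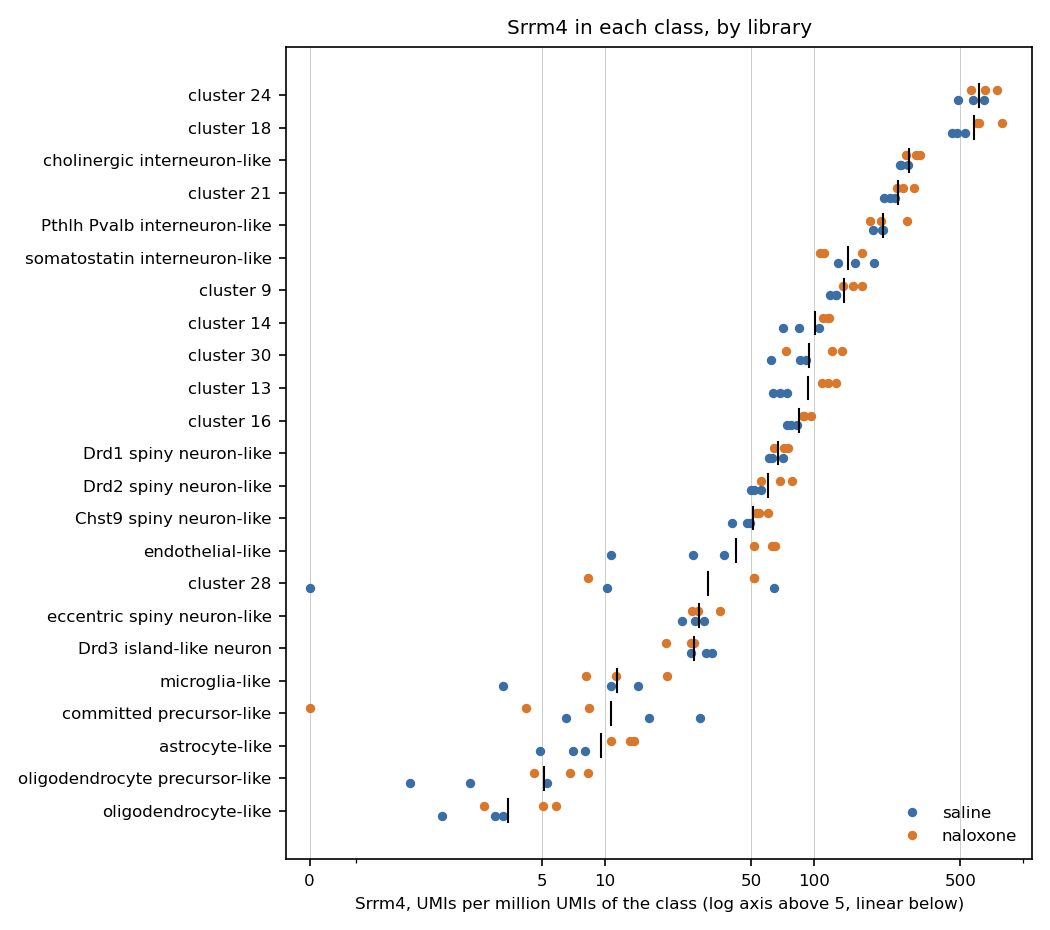
Srrm4 level (UMIs per 1000000 UMIs, log axis above 5 and linear below) in the 14 named classes and 9 numbered clusters, with 1 point per library (saline or naloxone) and a bar at the mean of the 6 libraries. Clusters 24 and 18 stand above every named class, and oligodendrocyte-like nuclei are the lowest at 4.27 CPM.

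Clusters 24 and 18 stood apart from the class next in the order. Cluster 18 lay above cholinergic interneuron-like nuclei in all 6 libraries, by 2.04-fold in the means. The order of clusters 24 and 18 themselves differed between libraries, with cluster 24 higher in 4 of 6. Srrm4 also kept 1 order in all 6 libraries from cluster 18 down to somatostatin interneuron-like nuclei (144.7 ± 33.9 CPM). Drd1 and Drd2 spiny neuron-like nuclei did not differ beyond their spread, with Drd1 higher in 4 of 6 libraries. Over the 198 neighbouring pairs of all 9 members, 38 had the same order in every library. With 6 libraries the exact two-sided sign-flip permutation test cannot go below p = 0.031, and after Benjamini-Hochberg adjustment over the 198 pairs the smallest p was 0.163, so no neighbouring pair passed.

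The same order held at equal depth for these classes. After thinning every nucleus to 1000 UMIs, 41.1% of nuclei of cluster 24 and 36.9% of cluster 18 had an Srrm4 UMI, against 22.7% of cholinergic interneuron-like, 6.44% of Drd1 spiny neuron-like and 5.74% of Drd2 spiny neuron-like nuclei. Without thinning the shares were 96.5%, 86.9%, 85.5%, 42.8% and 35.9%. Oligodendrocyte-like nuclei, which should lack the gene, gave 0.457% after thinning and 0.722% before, at a median of 1623 UMIs per nucleus against 10827 in cluster 18. Thinning left out 16.1% of them as too shallow and none of cluster 18. The astrocyte-like share was 0.951% after thinning.

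Cluster 18 held 1225 nuclei from all 6 libraries, at least 134 in each. It carried markers of GABAergic neurons, with Gad1 (a GABA-synthesizing enzyme) at 245.3 CPM, Gad2 at 285.7 CPM and the vesicular GABA transporter Slc32a1 at 50.3 CPM. The spiny neuron marker Ppp1r1b (DARPP-32) was at 5.17 CPM and the glutamatergic markers were each under 3 CPM. Of the Pthlh Pvalb interneuron markers, the potassium channel gene Kcnc2 was high at 1414 CPM while Pvalb was at 3.27 CPM and Pthlh at 0.0817 CPM. Its leading genes were Sema3c, ENSRNOG00000063531, Gpc5 and Lypd6b, followed by Srrm4 itself. Cluster 24 (542 nuclei) was led by Ndst4 and shared Sema3c, Lypd6b and Srrm4 among its 10 leading genes.

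All members but Ptbp2 were higher in neuronal than in non-neuronal clusters in 6 of 6 libraries, each with an exact two-sided sign-flip p of 0.031, the smallest that 6 libraries can give. Srrm4 had the largest ratio, 14.3-fold (130.1 ± 25.2 against 9.12 ± 2.48 CPM, library ratios 10.7 to 20.6). Rbfox3, whose product is the NeuN antigen used to stain neurons, was 9.80-fold higher, Celf4 9.10-fold and Srrm3 8.81-fold. Rbfox1 was 4.88-fold, Nova2 2.91-fold, Rbfox2 1.68-fold and Nova1 1.28-fold higher. After thinning, 92.8% of neuronal and 57.7% of non-neuronal nuclei held an Rbfox1 UMI, a ratio of 1.61. Shares of nuclei have a ceiling that CPM lacks, so this ratio and the 4.88-fold are unlike measures. Ptbp2 held 267.3 ± 18.3 CPM in neuronal and 263.4 ± 18.4 CPM in non-neuronal clusters, was higher in neurons in 3 of 6 libraries and had an exact sign-flip p of 0.5625.

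Within neurons the members followed different orders. Srrm3 was nearly even, between 191.8 and 289.3 CPM in the neuronal classes. Rbfox1 was highest in Drd2 spiny neuron-like nuclei (14893 CPM), Drd1 spiny neuron-like nuclei (13009 CPM) and Drd3 island-like neurons (11153 CPM), in that order in all 6 libraries. In clusters 18 and 24, the richest in Srrm4, Rbfox1 had its lowest neuronal levels, 1437 and 1182 CPM. Not every pair of classes was opposed in this way. Cholinergic interneuron-like nuclei, the named class richest in Srrm4, held more Rbfox1 than Chst9 spiny neuron-like nuclei in all 6 libraries (6612 against 4925 CPM). They held less Rbfox1 than the Drd1, Drd2 and Drd3 classes, which were lower in Srrm4. Rbfox3 was likewise highest in spiny neurons, 764.2 CPM in the eccentric and 680.1 CPM in the Drd2 class, and lowest among neurons in cholinergic interneuron-like nuclei (239.8 CPM). Rbfox2 was highest in cluster 14 at 686.6 CPM and, unlike Rbfox3, remained at 480.8 CPM in astrocyte-like nuclei.

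Nova1 was the only other member highest in cluster 24, at 686.3 CPM, followed in all 6 libraries by cluster 9 (599.0 CPM) and cluster 30 (542.1 CPM). Its lowest level of all classes was in cholinergic interneuron-like nuclei, 112.0 CPM, below microglia-like nuclei (145.1 CPM) in all 6 libraries. Nova2 varied little among neurons, 38.8 to 60.3 CPM, and was near the floor in oligodendrocyte-like nuclei (4.58 CPM). Celf4 was highest in Drd3 island-like neurons (1156.8 CPM) and, like Rbfox1, low in clusters 18 and 24 (475.6 and 391.2 CPM). Ptbp2 stayed between 201.2 and 374.3 CPM in every class, a range of 1.86-fold against 143-fold for Srrm4.

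The endothelial-like cluster held RNA of neuronal marker genes, which limits its use as a reference for non-neuronal levels. Its nuclei had a median of 1430.5 UMIs, and Rbfox1 reached 4850 CPM, Celf4 455.1 CPM and Srrm4 42.3 CPM there. Summed markers of neurons were 1439 to 4522 CPM in this cluster. Its mean of Nova2, 69.3 CPM, was the highest of all classes and lay above every neuronal class. The part of free RNA in these values was not tested.

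**Figure D2:**
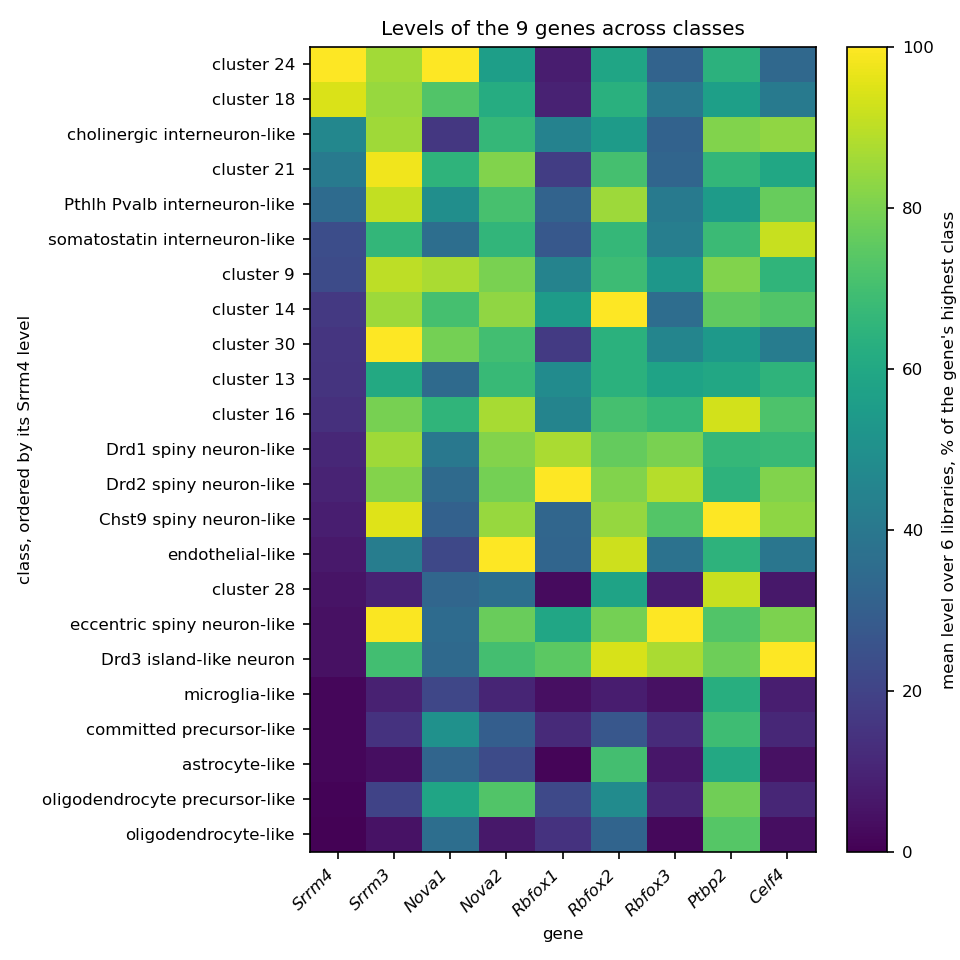
Mean level of each member over the 6 libraries in each class, as a percentage of the highest class mean of that gene (colour), with classes ordered by their Srrm4 level. Srrm4 is concentrated in the top 2 rows, where Rbfox1 and Celf4 are low, while Ptbp2 varies least between rows.

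Among 12596 genes compared over the 14 named classes, the 5 whose mean log2(CPM + 1) was most like Srrm4 were Vom1r42 (Pearson r = 0.964), Fam174b (0.962), AC096201.1 (0.950), Cemip (0.942) and ENSRNOG00000065346 (0.938). All 5 were highest in cholinergic interneuron-like nuclei, and Vom1r42 reached only 13.5 CPM there. Of the members, Celf4 (r = 0.83) and Srrm3 (r = 0.79) were most like Srrm4, and Nova1 was least like it (r = -0.30). Over all 23 classes, clusters 18 and 24 included, the order differed: Srrm3 (r = 0.76) came before Celf4 (0.67), Nova1 was positive (0.37) and Ptbp2 was least like Srrm4 (-0.21). These values describe classes that share the same libraries.

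Over all nuclei, Srrm4 was at 87.3, 87.0 and 80.2 CPM in saline replicates 1 to 3 and at 122.7, 124.4 and 120.9 CPM in naloxone replicates 4 to 6. All naloxone libraries lay above all saline libraries, and the groups were 84.9 ± 4.03 and 122.7 ± 1.73 CPM. The log2 change in the edgeR fit was 0.52 (SE 0.06), and 0.48 (SE 0.06) in the neuronal clusters together. Of all genes tested over all nuclei, 11.4% had their 3 naloxone libraries above their 3 saline libraries. Such a sum alone cannot tell more nuclei of a class rich in Srrm4 from more Srrm4 RNA per nucleus. A split by class is given below.

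None of the other 8 members was called over all nuclei by edgeR's quasi-likelihood test at a Benjamini-Hochberg adjusted p under 0.05, where 0.0404% of 17342 genes were called. Their log2 changes lay between -0.10 (Rbfox1, SE 0.09) and 0.09 (Srrm3, SE 0.10), with unadjusted p from 0.26 to 0.85, and DESeq2 called none of them either. Celf4 was at 684.6, 715.3 and 649.3 CPM after saline and 683.0, 769.3 and 737.3 CPM after naloxone, and the groups overlapped. Rbfox1 was at 8726, 9109 and 8166 CPM after saline and 7562, 9047 and 7875 CPM after naloxone, and overlapped as well. In the neuronal clusters together, where 0.279% of 16157 genes were called, the other 8 again included no call, with log2 changes from -0.14 (Rbfox1) to 0.08 (Ptbp2) and unadjusted p from 0.11 to 0.76. In the non-neuronal clusters together, where 0.181% of 14351 genes were called, they also gave no call, with unadjusted p from 0.24 to 0.93.

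**Figure D3:**
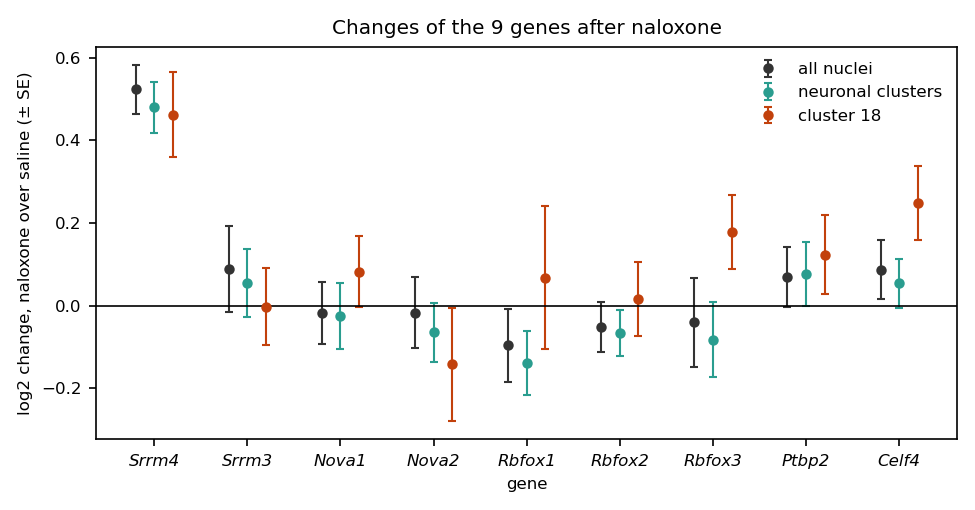
Log2 change of each member, naloxone over saline, with its standard error in the edgeR fit, over all nuclei, in the neuronal clusters together and in cluster 18. Srrm4 lies at 0.52, 0.48 and 0.46, and the other 8 members lie within 0.25 of 0.

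The Srrm4 difference over all nuclei, 37.8 CPM, was split exactly into what came from the level within each class and what came from the share of UMIs each class held. Level gave 54.8% and share 45.2%. Without naloxone replicate 5 level gave 38.9%, and with classes from a marker gate on each nucleus it gave 87.0% and share 13.0%. Cluster 18 gave 49.9% of the whole difference, 18.9 CPM, of which 6.99 CPM came from its level and 11.9 CPM from its share. Cluster 24 gave 12.5%, cluster 9 (led by Bnc2) 10.9%, cluster 21 (Htr7) 8.25% and cluster 14 (Trpc4) 4.85%. The order of these smaller parts rests on single libraries: cluster 24 gave 5.78% without naloxone replicate 6, below cluster 9 at 10.96%, and leaving out naloxone replicate 4 gave cluster 14 a part of 2.10%. Cluster 14 gave 2.73% when saline replicate 3 was dropped and 7.81% when naloxone replicate 5 was. The 8 numbered neuronal clusters together gave 90.4% (81.7% to 105.1% with 1 library left out). The 8 named neuronal classes together gave 6.31%, the non-neuronal classes 0.782% and the mixed clusters 1.26%. Drd1 spiny neuron-like nuclei, the most numerous neurons, gave 0.324%, and between -5.77% and 4.32% with 1 library left out.

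**Figure D4:**
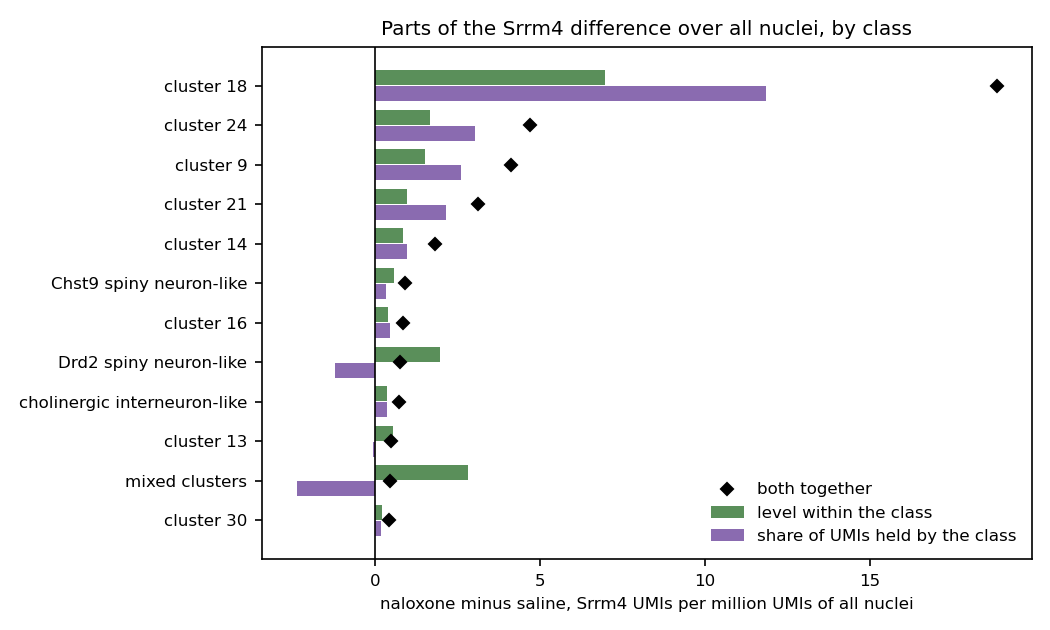
Parts of the Srrm4 difference over all nuclei (naloxone minus saline, UMIs per 1000000 UMIs) for the 12 classes with the largest parts, split into level within the class and share of UMIs held by it (bars), with their sum (diamonds). Cluster 18 gives 18.9 CPM, and no other class gives more than 4.71 CPM.

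Within cluster 18, Srrm4 was at 481.1, 525.6 and 455.1 CPM after saline and at 601.5, 790.8 and 614.1 CPM after naloxone. The groups did not overlap, and the log2 change was 0.46 (SE 0.10). The share of its nuclei with an Srrm4 UMI after thinning was 32.7% after saline and 41.1% after naloxone. Cluster 18 also held more of the RNA, 3.22%, 2.48% and 3.13% of UMIs after saline and 6.26%, 4.11% and 4.75% after naloxone. It made up 1.92%, 1.49% and 1.498% of the nuclei after saline and 3.18%, 2.19% and 2.32% after naloxone. Of all Srrm4 UMIs, 17.7%, 14.98% and 17.8% came from cluster 18 in the saline libraries and 30.7%, 26.2% and 24.1% in the naloxone libraries. Among its other leading genes, Sema3c, ENSRNOG00000063531 and Klhl1 were also higher within it in every naloxone library. Of all genes tested in cluster 18, 5.47% had naloxone libraries above saline libraries and 7.46% below. Sema3c, a secreted semaphorin of axon guidance, was at 261.6 to 275.2 CPM after saline and 323.6 to 427.5 CPM after naloxone. ENSRNOG00000063531 was at 105.9 to 168.7 CPM after saline and 279.8 to 364.9 CPM after naloxone.

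Since leading genes of cluster 18 differed between the groups, nuclei were also clustered without the leading genes of the unnamed neuronal clusters, a choice made after seeing the data. Clusters 18 and 24 were then best matched by 1 cluster of 1925 nuclei. Its overlap (nuclei in both over nuclei in either) was 0.56 with cluster 18 alone and 0.27 with cluster 24 alone. The matched cluster held 5.26%, 4.68% and 5.73% of UMIs after saline and 9.32%, 6.04% and 9.03% after naloxone, and the groups were separate. It gave 62.30% of the Srrm4 difference, against 62.31% for clusters 18 and 24 together. Matches of other clusters held partly different nuclei, so their parts are not those of the same nuclei. Clusters 9 and 16 (overlap 0.26 and 0.56) shared 1 best match that gave 3.67%, against 10.9% and 2.30% before. Clusters 14, 21 and 36 (overlap 0.40, 0.28 and 0.04) shared another that gave 21.4%, against 4.85%, 8.25% and 0.588% before.

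The numbered neuronal clusters as a group held more of the UMIs in every naloxone library, although not in female nuclei alone. They held 18.5%, 17.2% and 18.04% of UMIs after saline and 29.2%, 19.0% and 27.5% after naloxone, and naloxone replicate 5 was closest to the saline libraries. In nuclei called female by Xist the groups overlapped at 23.4%, 24.8% and 29.8% after saline and 41.3%, 15.5% and 26.3% after naloxone. In male nuclei the shares were 21.6%, 16.9% and 11.2% after saline and 26.8%, 28.9% and 35.3% after naloxone, without overlap. With these clusters left out, Srrm4 was at 56.5, 57.6 and 48.0 CPM after saline and 58.6, 72.9 and 60.0 CPM after naloxone. The difference was then 0.24 on the log2 scale of the means, against 0.53 with all nuclei. Without cluster 18 alone it was 0.37 (72.7 ± 4.11 against 94.3 ± 3.10 CPM). Summed spiny neuron markers over all nuclei were 3704 to 4098 CPM after saline and 3011 to 4449 CPM after naloxone, with the extremes in naloxone replicates 4 and 5. Whether the punches differed in the neurons they took was not tested.

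The same shares of UMIs moved the pooled levels of other members. Rbfox1 was 506 CPM lower over all nuclei after naloxone, and this was the sum of -543 CPM from the shares of the classes and 37.0 CPM from levels within them. Nova1 had -21.0 CPM from levels and 18.8 CPM from shares, which left -2.18 CPM. For Celf4, levels within classes gave 55.3 CPM and shares -8.55 CPM.

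Nuclei were split by sex through Xist and 5 Y-linked genes, with at least 1 UMI of one kind and none of the other, which gave 23696 female and 18847 male nuclei. Another 4482 nuclei held both signals and 11935 held neither, and these were left out. Both signals were found in 45.1% of nuclei of the mixed clusters and in 6.45% of cluster 18. Shares among sexed nuclei thus have another denominator than shares among all nuclei. Female nuclei held Srrm4 at 95.6, 96.8 and 95.1 CPM after saline and 159.5, 106.5 and 121.3 CPM after naloxone. Male nuclei held it at 96.1, 92.4 and 77.3 CPM after saline and 106.2, 160.9 and 140.0 CPM after naloxone. In each sex every naloxone library lay above every saline library. The 3 naloxone libraries, within 1.73 CPM (SD) of each other when pooled, spread by 27.3 CPM in females and 27.6 CPM in males. The change in males minus that in females was 0.12 on the log2 scale (SE 0.24) in the edgeR fit with library as a block, with an adjusted p of 0.94.

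The share of cluster 18 also differed between the sexes of a library. Its share of UMIs in female nuclei was 9.63%, 2.57% and 6.47% in naloxone replicates 4, 5 and 6, and 3.79%, 3.44% and 4.71% after saline. In male nuclei it was 4.92%, 6.96% and 4.21% after naloxone, and 4.04%, 2.60% and 2.33% after saline. Female nuclei of naloxone replicate 5 thus held less of cluster 18 than any female saline sample, and their Srrm4 was the lowest of the female naloxone values. In males Srrm4 and the share of cluster 18 were both highest in naloxone replicate 5, but the lowest share (replicate 6) and the lowest Srrm4 (replicate 4) were in different libraries. Within cluster 18, Srrm4 in female nuclei was 526.2, 471.6 and 436.2 CPM after saline and 665.8, 661.4 and 645.3 CPM after naloxone, without overlap. In male nuclei it was 440.7, 552.0 and 509.1 CPM after saline and 427.2, 883.0 and 635.2 CPM after naloxone, and the groups overlapped.

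**Figure D5:**
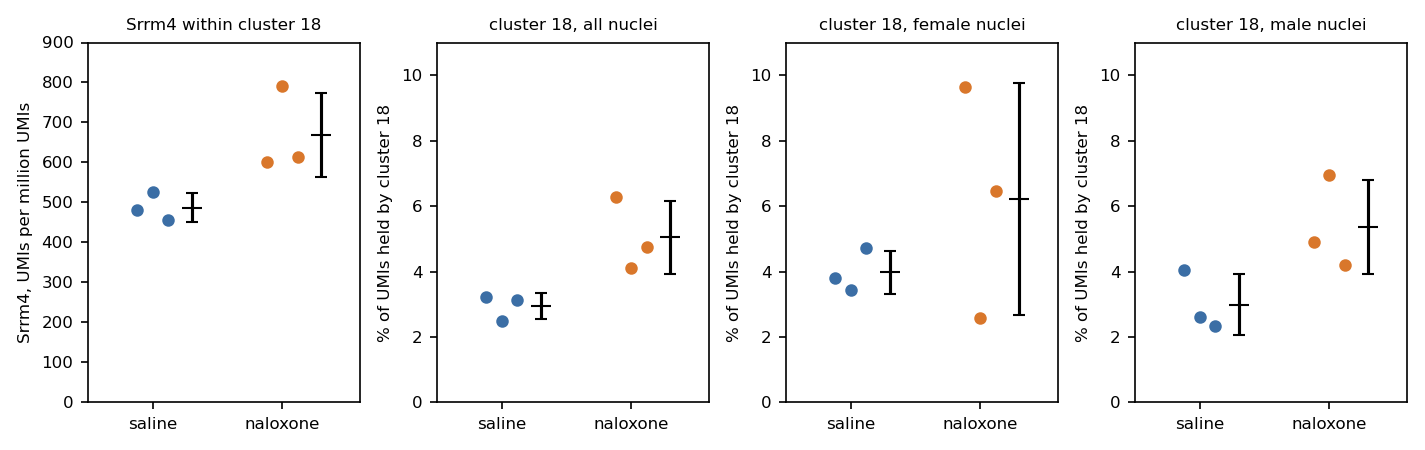
Srrm4 level within cluster 18 (left, UMIs per 1000000 UMIs) and the percentage of UMIs held by cluster 18 in all, female and male nuclei, with 1 point per library and mean ± SD beside the points (n = 3). The level and the share over all nuclei do not overlap between saline and naloxone, while the female share in naloxone replicate 5 (2.57%) lies below the female saline values.

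Beyond cluster 18, Srrm4 was higher after naloxone in all 3 libraries in several classes, as values from the contrast that put it in the list. Of the gene and class pairs that passed the filter on low counts, 6.45% had naloxone libraries above saline libraries. Srrm4 did so in 9 of 23 classes and lay below in none. All 23 classes were counted for it, also those where it did not pass the filter. The 9 were clusters 9, 13, 14, 16, 18 and 21 and the Chst9 spiny neuron-like, astrocyte-like and endothelial-like nuclei. In Chst9 spiny neuron-like nuclei it was 40.6, 47.5 and 49.4 CPM after saline and 52.8, 60.1 and 54.3 CPM after naloxone (log2 change 0.29, SE 0.11). In Drd2 spiny neuron-like nuclei it was 51.6, 55.8 and 49.8 CPM after saline and 55.5, 78.1 and 68.6 CPM after naloxone, and naloxone replicate 4 fell just below the highest saline library (0.39, SE 0.11). In Drd1 spiny neuron-like nuclei it was 63.0, 70.7 and 60.8 CPM after saline and 71.4, 75.0 and 64.2 CPM after naloxone, which overlapped (0.11, SE 0.08). Cholinergic interneuron-like, Pthlh Pvalb interneuron-like and cluster 24 nuclei overlapped too, with log2 changes of 0.18, 0.11 and 0.21.

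Srrm4 passed the filter on low counts in 18 of the 23 classes, and the other members in 20 to 23. Among those 18, somatostatin interneuron-like nuclei and Drd3 island-like neurons had the only negative log2 changes of Srrm4, -0.27 and -0.24, and their groups overlapped. Astrocyte-like nuclei had the largest, 0.94 (SE 0.29), at low levels of 7.00, 8.01 and 4.95 CPM after saline and 10.7, 13.7 and 13.2 CPM after naloxone. Summed markers of neurons in astrocyte-like nuclei were 514 to 718 CPM after saline and 755 to 826 CPM after naloxone, so neuronal markers moved with it, and their part in the result was not tested. Oligodendrocyte-like nuclei lay at 2.85 to 4.15 CPM after saline and 3.75 to 5.81 CPM after naloxone. The clusters of that class held different parts of it in the 2 groups. Cluster 0 held 1060 to 1837 nuclei per saline library, and cluster 5 held 15 to 58. After naloxone, clusters 0 and 5 were near even in replicates 4 (1099 and 1027) and 6 (579 and 578). In naloxone replicate 5 they held 74 and 1507.

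The class by treatment term of Srrm4 over the 14 named classes, in an edgeR quasi-likelihood fit with library as a block, had an adjusted p of 0.0213, where 1.78% of 13783 genes passed. As Srrm4 was chosen on the same contrast, this p describes the values above and supports nothing. The value lay above 0.05 without saline replicate 1 (adjusted p = 0.334), saline replicate 2 (0.126), naloxone replicate 5 (0.0776) or naloxone replicate 6 (0.359). It also lay above 0.05 among the spiny neuron classes alone (0.447) and over the named neuronal classes with the numbered neuronal clusters (0.377), where 0.269% of 12645 genes passed.

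The other 8 members gave no call in any class by edgeR at an adjusted p under 0.05, in 178 tests of which 15 had an unadjusted p under 0.05. Over the same 23 classes, 0.211% of 208245 tests of all genes were called and 8.63% had an unadjusted p under 0.05. DESeq2 called 1 of the member tests, Celf4 in committed precursor-like nuclei.

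Over their 184 levels in the 23 classes, the other 8 members had naloxone libraries above saline libraries in 14 and below in 14. That is 7.61% each way, near the 6.45% and 8.17% of all gene and class pairs that passed the filter on low counts. The 184 levels were not filtered. Within this tally Celf4 separated most often, and it and Nova1 are described because of their values here. The naloxone libraries lay above the saline libraries for Celf4 in 9 of 23 classes and below in 2 of 23. In Drd2 spiny neuron-like nuclei it was 877.8, 921.7 and 852.4 CPM after saline and 951.3, 987.3 and 1023.2 CPM after naloxone (log2 change 0.18, SE 0.07, edgeR adjusted p = 0.30). In Drd3 island-like neurons it was 1065.9, 1075.2 and 1115.2 CPM after saline and 1247.5, 1168.9 and 1267.9 CPM after naloxone. In Pthlh Pvalb interneuron-like nuclei it was 774.5, 830.9 and 795.1 CPM after saline and 871.9, 990.2 and 1052.0 CPM after naloxone (0.28, SE 0.09, edgeR adjusted p = 0.47). Eccentric spiny neuron-like, cholinergic interneuron-like and somatostatin interneuron-like nuclei and clusters 9, 14 and 18 had non-overlapping groups in the same direction.

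Nova1 had naloxone libraries below saline libraries in 5 of 23 classes and above in none, against the same 8.17% and 6.45% of filtered pairs. In Drd2 spiny neuron-like nuclei it was 268.2, 238.9 and 263.7 CPM after saline and 215.0, 225.8 and 209.5 CPM after naloxone (log2 change -0.23, SE 0.07, edgeR adjusted p = 0.20). In cluster 24 it was 822.4, 701.9 and 726.4 CPM after saline and 565.4, 641.1 and 660.4 CPM after naloxone (-0.25, SE 0.10, edgeR adjusted p = 0.74). Cluster 14, eccentric spiny neuron-like and astrocyte-like nuclei were the other 3. Ptbp2 lay above without overlap in 3 classes and below in none. Nova2 lay above in 1 and below in 2, Srrm3 above in 1 and below in 1, and Rbfox1 and Rbfox2 each below in 2 and above in none. Rbfox3 had no class with separate groups in either direction.

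The lowest adjusted p of the other members was that of Celf4 in committed precursor-like nuclei, cells between oligodendrocyte precursors and oligodendrocytes. It was at 216.9, 233.7 and 164.3 CPM after saline and 105.8, 37.2 and 24.5 CPM after naloxone (log2 change -1.71, SE 0.37, edgeR adjusted p = 0.0682). Rbfox1 was at 3194, 3397 and 1925 CPM after saline and 1186, 957 and 44.2 CPM after naloxone in the same nuclei (-1.95, SE 0.66, edgeR adjusted p = 0.21). Summed markers of neurons were lower there as well, at 1570 to 2495 CPM after saline and 618 to 1553 CPM after naloxone, and their part in these values was not tested. In microglia-like nuclei Rbfox1 was at 350.3 to 554.3 CPM after saline and 520.5 to 986.2 CPM after naloxone (0.83, SE 0.21, edgeR adjusted p = 0.14), while summed neuronal markers were 528 to 723 CPM and 749 to 913 CPM.

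Other splicing regulators were not called by edgeR either. Over all nuclei, 0 of 33 tested genes of other RNA-binding regulators (Ptbp1, Elavl, Celf, Mbnl, Khdrbs, Qki and others), 0 of 34 SR proteins, SR kinases and hnRNPs, and 0 of 9 genes of REST and its corepressors passed. At an unadjusted p under 0.05 there were 3, 8 and 2, where 14.1% of all genes had one, and DESeq2 called 0 in each list and 2.41% of all genes. The median log2 changes were -0.02, -0.01 and -0.06, against 0.01 over all genes tested. In the neuronal clusters 0 genes of each list passed with edgeR, 5, 9 and 2 had an unadjusted p under 0.05, as did 16.2% of all genes. DESeq2 called 0, 1 and 0 there and 3.55% of all genes.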

How the data were processed

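Single-nucleus RNA was measured in 6 libraries (3 saline, 3 naloxone). The members, gene lists and markers were chosen with earlier results of these data known. The deposited values are UMI counts per gene and barcode without normalization, made by the authors with Cell Ranger 9.0.1 on mRatBN7.2 and analysed by them with Seurat 5.2.1 in R 4.4.0, per the submitters' processing notes. Libraries were 10x GEM-X 3' v4, per the labels' protocols. Counting of introns and the annotation release are not given in the sources used here. The labels state 44592 nuclei, the files hold 64260 barcodes and 61609 passed the filter below, and the authors' own choice among them was not used here.

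A nucleus was kept at 500 or more genes and no more than 5% mitochondrial UMIs. Doublets were called per library with the Scrublet method in scanpy 1.11.5, taking the highest scores at 0.4% per 1000 nuclei, and 2649 (4.30%) were removed. Nuclei were clustered on 3000 variable genes (40 components, 15 neighbours, Leiden 1.0). Members, the splicing and REST lists, Xist, Y-linked and mitochondrial genes were kept out of these. Cell type markers were not kept out, so the names are not independent of the genes used for clustering. Values were rounded between these steps so that a rerun gives the same clusters. Without that rounding some cluster borders moved with floating-point detail, which could give the Bnc2-led cluster a name. Clusters with a median doublet score of 0.08 or more were called mixed before the marker rules. A cluster with under 3 detected markers of its best class, with no class clear of the next, or of low depth with no marker among its leading genes, stayed unnamed. UMIs were summed per library and class and tested with edgeR 4.0.16 (quasi-likelihood, TMM, filterByExpr, R 4.3.3), with Benjamini-Hochberg adjustment over all genes of each fit at 0.05. CPM was computed from the sums. The 55739350 to 76272798 UMIs per library count all barcodes before filtering, and each class held only part of them. The labels do not say which rats went into which library, so p-values measure the spread between these libraries. Chi-square tests on pairs of replicate libraries gave 11.2 to 51.9 per degree of freedom, above counting noise.

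All 9 members are named. Of the lists only called genes would be, and the 5 genes most like Srrm4 by Pearson r were named among genes with at least 10 CPM in a class. The lists had 35 (other regulators), 35 (SR proteins and hnRNPs, Hnrnpc and Hnrnph1 not matched in the files, Hnrnph2 used by 2 genes) and 9 genes (REST). The edgeR script was tested on simulated data. Alternatives were DESeq2 1.42.0, RLE factors, leaving out each library in turn, no count filter, 1000 genes per nucleus, doublets kept, Leiden 0.5, a marker gate per nucleus and sex as a covariate. Added after seeing the data were clustering without leading genes, the filter and doublet settings for the parts of the Srrm4 difference, leaving out clusters, and the class by treatment term with numbered clusters.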

Additional observations from a re-analysis of the deposited data

Results flagged for a closer look

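The class by treatment term of Srrm4 over the 14 named classes had an adjusted p of 0.0213 in the edgeR quasi-likelihood fit, which was noted as a difference between groups under the same contrast. Srrm4 was chosen on that contrast, so the p is a description and supports nothing. The log2 change was 0.94 in astrocyte-like, 0.39 in Drd2 spiny neuron-like and 0.11 in Drd1 spiny neuron-like nuclei, and -0.27 in somatostatin interneuron-like nuclei. With 1 library left out at a time the adjusted p lay between 0.0141 and 0.359 and missed 0.05 in 4 of 6 cases. It was 0.447 among the spiny neuron classes alone and 0.377 over the neuronal classes with the numbered clusters.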

How the results depend on the processing

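No paired analysis was possible because the groups share no replicate numbers. The count of genes called over all nuclei was 7, against 368 with DESeq2, 41 without a filter, 0 at 1000 genes per nucleus, 14 with doublets kept, 78 with sex as a covariate and 0 to 228 with each library left out. In the neuronal clusters it was 45, against 471, 74, 25 with the marker gate, 124 with sex as a covariate and 0 to 1085. The fit with sex as a covariate took a female and a male sum of each library, from sexed nuclei only. It had no library block, so sums of 1 library counted as independent and its counts are not like for like. Members other than Srrm4 called by class numbered 0, against 1 with DESeq2, 6 without a filter, 1 with doublets kept and 0 to 2 with a library left out; these calls were of Celf4, Rbfox1, Rbfox3 and Srrm3 in committed precursor-like, microglia-like and cluster 28 nuclei. Over all nuclei the log2 change of Nova2 was 0.0002 with sex as a covariate, and with a library left out those of Srrm3 (-0.0395 to 0.17), Nova1 (-0.0821 to 0.0427), Nova2 (-0.10 to 0.0354) and Rbfox3 (-0.14 to 0.0553) changed sign. The Srrm4 log2 ratio of 0.53 was 0.37 without cluster 18, 0.35 without clusters 18 and 24 and 0.24 without the numbered neuronal clusters. The class by treatment adjusted p of Srrm4 was 0.447 for spiny neurons, 0.377 for neuronal classes with numbered clusters and 0.0141 to 0.359 with a library left out. At Leiden 0.5 the cluster matched to cluster 18 held 1632 nuclei and gave 61.8% of the Srrm4 difference. It carried leading genes of both clusters 18 and 24, and no cluster was matched to cluster 24. Cluster 18 gave 43.9% to 53.9% with a library left out. The gate has no such cluster, and there 43.9% came from nuclei it left without a class and 87.0% from level. With a library left out, level gave 38.9% to 63.96%. The neuronal to non-neuronal ratio of Srrm4 was 13.2 to 15.1 with a library left out. List calls reached 1 (other regulators, all nuclei), 5 (the same, neuronal) and 3 (SR proteins, neuronal) without naloxone replicate 5, from 0. The causes were not tested. Srrm4 in non-neuronal classes rests on few UMIs, and depth limits statements there.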

Other observations

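ENSRNOG00000063531, a leading gene of cluster 18 that was singled out after its values were seen, had a larger log2 ratio of the group means than Srrm4 over all nuclei (1.64 against 0.53). It was at 9.02, 13.4 and 19.7 CPM after saline and 54.3, 30.2 and 47.2 CPM after naloxone over all nuclei. Klhl1, another leading gene, was at 247.0, 222.2 and 291.8 CPM within cluster 18 after saline. After naloxone it was at 447.8, 297.9 and 362.3 CPM, without overlap. Gpc5, Lypd6b, Kcnc2, Cntnap5c, Il1rapl2 and ENSRNOG00000068611, also among its leading genes, overlapped between the groups within the cluster.

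Over all 23 classes, numbered clusters included, the genes most like Srrm4 were Ube2o (r = 0.909), highest in cluster 24, and Vom1r113 (r = 0.907), highest in cholinergic interneuron-like nuclei. Cluster 13, a low-depth cluster led by mitochondrial genes and left unnamed, held Srrm4 at 74.3, 69.0 and 63.2 CPM after saline and 109.4, 116.3 and 127.3 CPM after naloxone.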
